A study of Rattus norvegicus with 6 samples.

Results

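The matrix metalloproteinases (MMPs) and the tissue inhibitors of metalloproteinases (TIMPs) were followed in the spinal cord of rats with bone cancer pain (BCP). The members were 10 genes chosen by name, 6 MMP genes (Mmp2, Mmp3, Mmp9, Mmp12, Mmp14 and Mmp19) and the 4 TIMP genes (Timp1, Timp2, Timp3 and Timp4), out of 30957 genes in the gene table. Female Wistar rats received Walker 256 cells, a rat mammary carcinoma line, in the marrow cavity of the left tibia. The cells were alive in the BCP group and had been killed by heat in the sham group, so that both groups went through the same surgery. On day 14 the lumbar enlargement was taken, freed of meninges and split lengthwise, and RNA of the side of the injected leg was sequenced in 3 sham and 3 BCP libraries after removal of ribosomal RNA. The labels number the libraries but do not say that each came from a separate rat, so p-values measure the spread between these libraries. The gene totals ran from 11779485 to 15004290 counts per library. Because the samples were bulk tissue, more cells of a type and more RNA per cell cannot be told apart in any value given here.

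MMPs are zinc-dependent endopeptidases that are made as inactive proenzymes and cut proteins of the extracellular matrix, growth factors, cytokines and other proteases. Most are secreted, while Mmp14 is anchored in the cell membrane. TIMPs are small secreted proteins that block the active site of MMPs, and Timp3 also inhibits sheddases of the ADAM family. In the spinal cord, gelatinases of this family have been studied as cleavers of cytokine precursors and of the matrix around synapses after nerve injury.

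Timp1 was the member with the largest fold change among the 7 that could be tested, and in BCP cord its level overlapped with that of Mmp14. Mmp19 was the only other member past both thresholds, which were an adjusted p under 0.05 and a fold change over 2. Mmp2 and Mmp14 rose by less. No change passed the test for Timp2, Timp3 or Timp4, which made up most of the TIMP transcripts in both groups. Mmp3 and Mmp9 had too few counts for the test, and Mmp12 was listed at 0 in every library.

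The sequence around the RefSeq transcription start was available for 6 of the 10 members (Mmp3, Mmp12 and the 4 TIMPs), on build GRCr8. A subset is shown for contrast: Timp1, which rose; Timp2, the most abundant member, for which no change passed; and Mmp3, which had few counts. Each runs 5′ to 3′ from 250 bases before the start to 50 bases after it. Capitals mark matches to the motifs searched on both strands, which were AP-1 (TGANTCA), the GC box (GGGCGG), the TATA box (TATAAA) and the STAT-binding GAS element (TTCNNNGAA).
Timp1, chrX:3771073-3771372, minus strand: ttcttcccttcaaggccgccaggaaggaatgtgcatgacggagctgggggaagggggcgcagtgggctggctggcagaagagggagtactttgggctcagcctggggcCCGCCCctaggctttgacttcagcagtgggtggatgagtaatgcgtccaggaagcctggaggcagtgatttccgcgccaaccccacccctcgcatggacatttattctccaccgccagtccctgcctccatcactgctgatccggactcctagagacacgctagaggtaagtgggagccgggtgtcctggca
Timp2, chr10:104089165-104089464, minus strand: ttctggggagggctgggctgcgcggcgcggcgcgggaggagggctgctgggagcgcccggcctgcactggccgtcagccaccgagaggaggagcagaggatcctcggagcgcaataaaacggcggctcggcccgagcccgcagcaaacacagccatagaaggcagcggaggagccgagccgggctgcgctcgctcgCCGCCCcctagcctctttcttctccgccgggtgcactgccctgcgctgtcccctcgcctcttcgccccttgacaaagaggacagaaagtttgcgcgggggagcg
Mmp3, chr8:12925031-12925330, plus strand: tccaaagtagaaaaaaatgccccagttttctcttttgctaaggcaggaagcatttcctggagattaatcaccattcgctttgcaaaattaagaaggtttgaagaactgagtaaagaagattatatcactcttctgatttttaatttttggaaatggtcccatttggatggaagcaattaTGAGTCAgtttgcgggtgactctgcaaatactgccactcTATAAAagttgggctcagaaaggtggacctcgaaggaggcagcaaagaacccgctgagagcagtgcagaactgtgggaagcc
The windows differed in base composition. The Timp2 window was 70.3% G or C with 32 CG dinucleotides, the Timp1 window 61.3% with 12, and the Mmp3 window 42.0% with 4, beside medians of 51.7% and 7 over 33469 rat promoters of this length. Timp1 and Timp2 held a single GC box each, at -142 and -54 from the start, written as CCGCCC because it lies on the other strand. Timp3 held 3 GC boxes, and 33.1% of all promoters held at least 1. Mmp3 had an AP-1 match at -71 and a TATA box at -32. Mmp12 had the same pair, at -87 and -39. Of all promoters, 7.33% held the AP-1 letters and 14.2% the TATA letters. No searched motif was found in the Timp4 window, and no GAS match in any of the 6 windows (8.87% of all promoters). Only exact letters were searched, so near matches, such as tgagtaa in the Timp1 window, were not marked. These matches describe letters and say nothing about binding.

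**Figure D1:**
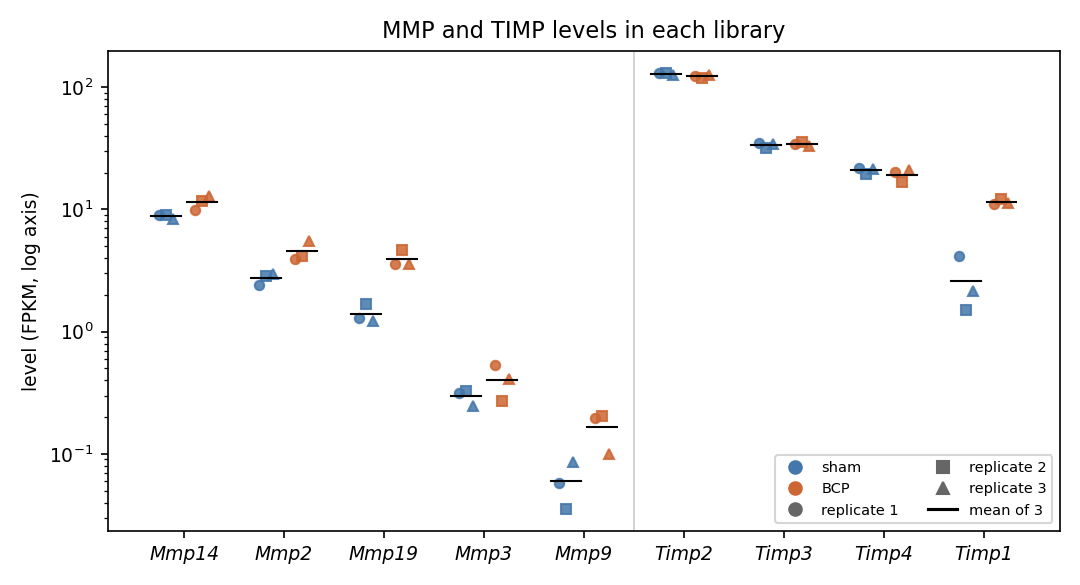
Level of each member in each library, in FPKM (fragments scaled to transcript length and library size) on a log axis, with sham in blue, BCP in orange, marker shape for the replicate and a line for the mean of 3. Timp2 lies above 100 FPKM in both groups and Mmp9 near 0.1 FPKM. The BCP points lie above all sham points for Mmp2, Mmp9, Mmp14, Mmp19 and Timp1. Mmp12 is not drawn because it was listed at 0.

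Levels were compared between genes in FPKM, the deposited unit that divides by transcript length. In sham cord the inhibitors were the more abundant class. Timp2 stood at 129 ± 3.40 FPKM (mean ± SD, n = 3 here and below), Timp3 at 33.8 ± 1.87 FPKM and Timp4 at 20.9 ± 1.19 FPKM. Mmp14 followed at 8.81 ± 0.406 FPKM. Mmp2 (2.74 ± 0.292 FPKM), Timp1 (2.60 ± 1.38 FPKM) and Mmp19 (1.41 ± 0.245 FPKM) came next, and the sham libraries of Timp1 overlapped with those of both neighbours. Mmp3 and Mmp9 were lowest, at 0.297 ± 0.0442 and 0.0597 ± 0.0252 FPKM. In BCP cord the first 3 places were the same, with Timp2 at 123 ± 3.97 FPKM, Timp3 at 34.5 ± 1.13 FPKM and Timp4 at 19.3 ± 2.30 FPKM. Timp1 (11.5 ± 0.513 FPKM) and Mmp14 (11.5 ± 1.52 FPKM) then shared the next place with overlapping libraries. Mmp2 (4.55 ± 0.878 FPKM) and Mmp19 (3.94 ± 0.639 FPKM) also overlapped, and Mmp3 (0.405 ± 0.135 FPKM) and Mmp9 (0.167 ± 0.0590 FPKM) were again lowest.

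Fold changes were tested on the deposited counts with edgeR's quasi-likelihood test over 14908 genes, with p-values adjusted over all of them by the Benjamini-Hochberg method. Levels within a gene are given as CPM, the count divided by the normalized total of its library and multiplied by 1e6. Of the 7 members tested, 2 were past both thresholds as higher in BCP and none as lower. Over all tested genes, 6.35% were called higher and 0.107% lower. By the adjusted p alone, 4 members were higher and none lower, beside 15.8% and 12.1% of all genes. With upper-quartile normalization Timp2 also passed as lower, so that the split became 4 higher and 1 lower. That setting also moved the median log2 fold change of all genes, from -0.014 to -0.050. In CPM the BCP libraries lay entirely above the sham libraries for 4 of the 7 and entirely below for 1, where 21.7% and 19.8% of all tested genes did so. The median log2 fold change was 0.34 over the 7 members and -0.01 over all genes.

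Mmp2 encodes gelatinase A, which cuts denatured collagens and type IV collagen of basement membranes. It lies on chromosome 19 at 15542765 to 15570611 (build Rnor_6.0, as for all gene positions below). Sham counts were 99, 126 and 137 and BCP counts 142, 176 and 221, which is 7.55, 8.80 and 9.26 CPM against 12.01, 12.6 and 16.7 CPM. All BCP libraries were above all sham libraries, and BCP 3 was the highest. The mean rose from 8.54 ± 0.884 to 13.8 ± 2.58 CPM, a log2 fold change of 0.69 (SE 0.15, edgeR adjusted p = 0.00155), below the threshold of 2-fold.

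Mmp14 is a membrane-bound protease that cuts fibrillar collagens and activates the proenzyme of Mmp2. The gene spans 33074441 to 33083655 on chromosome 15. The sham libraries held 294, 320 and 305 counts and the BCP libraries 283, 390 and 407. The lowest raw count was thus in BCP 1, the shallowest library, but in CPM the sham values of 22.4, 22.3 and 20.6 all lay below the BCP values of 23.9, 27.9 and 30.8. BCP 1 was close to the sham libraries and BCP 3 farthest from them. The log2 fold change was 0.34 (SE 0.10, edgeR adjusted p = 0.0141). This call depended on single libraries: it was 0.30 with adjusted p = 0.0620 without sham 3 and 0.25 with adjusted p = 0.108 without BCP 3.

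Mmp19, a secreted protease that cuts basement membrane proteins, lies on chromosome 7 at 3216497 to 3224201. Its counts were 35, 49 and 37 for sham and 84, 129 and 93 for BCP. In CPM these were 2.67, 3.42 and 2.50 against 7.10, 9.22 and 7.04. The lowest BCP library was above the highest sham library by more than the whole sham range. The log2 fold change was 1.44 (SE 0.20, edgeR adjusted p = 1.78e-05), or 2.72-fold, and Mmp19 was the MMP member with the largest fold change among the 3 tested. It was not past a test of whether the fold change itself exceeds 2.

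Mmp9 encodes gelatinase B, which is stored by neutrophils and induced in many other cells. It lies on chromosome 3 at 161413298 to 161421520. The gene had 3, 2 and 5 counts in sham and 9, 11 and 5 in BCP, too few to pass the low-count filter. Sham 3 and BCP 3 shared a count of 5, and in CPM the values were 0.229, 0.140 and 0.338 against 0.761, 0.786 and 0.379, with every BCP library above every sham library. The summed counts, 10 against 25, gave a BCP to sham ratio of 2.78 with an exact 95% interval of 1.29 to 6.49 that covers counting error only. When all genes were fitted without the filter, its log2 fold change was 1.40 (SE 0.62, edgeR adjusted p = 0.121).

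Mmp3, a stromelysin that cuts proteoglycans and activates other proMMPs, was not distinguishable between groups at this depth. It had 8, 9 and 7 counts in sham and 12, 7 and 10 in BCP. The groups overlapped, and the ratio of the summed counts (24 and 29) was 1.35 with an exact 95% interval of 0.756 to 2.41. The fit without the filter gave a log2 fold change of 0.39 (SE 0.49, edgeR adjusted p = 0.645). Mmp12, the macrophage elastase, lies near it on chromosome 8 (Mmp12 at 5606592 to 5616493, Mmp3 at 5676665 to 5698579). Its row was 0 in all 6 libraries, but 10312 genes were listed at 0 throughout, among them Rps6, Hsp90aa1 and both rows of Hprt1, which nearly every cell uses. A listed 0 was therefore not read as absence of Mmp12. Both genes belong to a cluster of 10 MMP genes between 5522739 and 5901049 on chromosome 8. Only 4 of the 10 had a count in any library, and the highest count in a library was 28.

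Timp1, the TIMP best known as inducible by cytokines and injury, spans 1364786 to 1369384 on chromosome X. For sham its counts were 41, 16 and 24, and for BCP they were 97, 123 and 108. In CPM the sham values were 3.13, 1.12 and 1.62 and the BCP values 8.20, 8.79 and 8.18. The sham libraries were spread more widely than the BCP libraries, with sham 1 highest, and every BCP library was above all of them. The mean was 1.96 ± 1.05 CPM in sham and 8.39 ± 0.347 CPM in BCP. The log2 fold change was 2.12 (SE 0.26, edgeR adjusted p = 6.03e-06), or 4.33-fold, and it was 2.60 without sham 1. Timp1 alone among the members passed the test against a fold change of 2.

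Timp2, which inhibits MMPs and also takes part in the activation of proMmp2 on the cell surface by Mmp14, spans 107338465 to 107386072 on chromosome 10. Its CPM values were 219, 222 and 211 in sham and 205, 194 and 207 in BCP. The BCP libraries were all below the sham libraries in CPM, by a small step, whereas in FPKM BCP 3 (127) lay above sham 3 (125). The log2 fold change of -0.11 (SE 0.05, edgeR adjusted p = 0.0992) did not pass.

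Timp3, which binds to the matrix and inhibits MMPs and ADAM proteases, spans 23544215 to 23594133 on chromosome 7. It measured 62.6, 56.0 and 61.4 CPM in sham and 60.1, 61.2 and 57.2 CPM in BCP. The groups overlapped almost wholly and the log2 fold change was -0.01 (SE 0.07, edgeR adjusted p = 0.929). Its sign turned positive in 6 of 16 alternative settings, so it carries no direction. Timp4, the most tissue-restricted of the TIMPs, spans 147156948 to 147163467 on chromosome 4. It measured 37.7, 33.7 and 37.0 CPM in sham and 34.5, 27.9 and 34.8 CPM in BCP, with BCP 2 lowest and the groups overlapping. The log2 fold change was -0.16 (SE 0.09, edgeR adjusted p = 0.229).

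**Figure D2:**
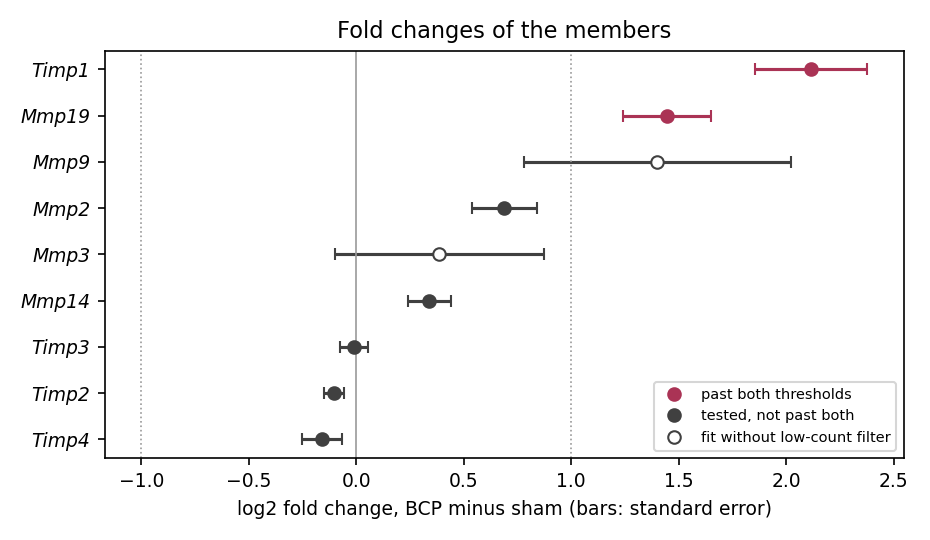
Log2 fold change of BCP over sham for 9 members, with bars for the standard error and dotted lines at 2-fold in either direction. Timp1 (2.12) and Mmp19 (1.44), in red, were past both thresholds. Open points mark Mmp9 and Mmp3, taken from the fit without the low-count filter, whose bars are the widest of the 9.

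The sum over the MMP members was higher in every BCP library than in every sham library, while the TIMP sums overlapped in FPKM but not in CPM. The summed MMP level was 13.1, 13.9 and 12.9 FPKM for sham and 18.1, 20.9 and 22.5 FPKM for BCP. The summed TIMP level was 191, 185 and 183 FPKM against 190, 183 and 192 FPKM, with the groups overlapping. In CPM the TIMP sums were 323, 312.5 and 311 for sham and 308, 292 and 307 for BCP, so that every BCP library was below every sham library. In FPKM the TIMP sum was 14.0 ± 0.680 times the MMP sum in sham and 9.27 ± 1.08 times in BCP, and the highest BCP library (10.5) was below the lowest sham library (13.2). Within the TIMP sum, Timp1 held 1.39% ± 0.706 in sham and 6.10% ± 0.423 in BCP, and Timp2 held 69.2% ± 1.93 and 65.4% ± 0.530. These are transcript ratios over chosen members, and no test was made on them. MMPs outside the members were left out of the sum. In FPKM, Mmp15 stood at 17.0 in sham and 15.1 in BCP, above Mmp14 in both groups. Mmp16 stood at 11.9 and 14.1, Mmp24 at 6.02 and 6.38, and Mmp17 at 2.84 and 2.54. With these in the MMP sum the ratio would be lower in both groups, and the groups would lie closer. Proteins, proenzyme activation and activity were not measured.

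**Figure D3:**
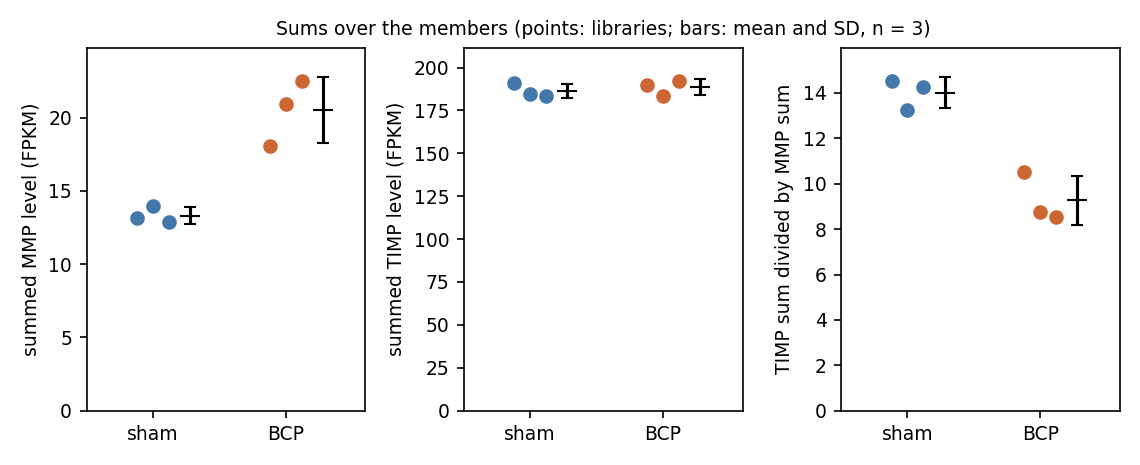
Summed FPKM of the MMP members, summed FPKM of the TIMP members and the ratio of the sums in each library, with the mean and SD of 3 beside the points and axes from 0. Mean MMP sums were 13.3 and 20.5 FPKM, TIMP sums were 186 and 189 FPKM, and the ratio was lower in all BCP libraries than in all sham libraries.

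Genes next to the members were read from the same table. Timp1, Timp3 and Timp4 lie inside the spans of the synapsin genes Syn1, Syn3 and Syn2, which encode proteins of synaptic vesicles. In RefSeq, Timp1 and Timp4 are on the opposite strand to their hosts. The libraries were strand-specific, but the sources used here do not say whether the counting used strand. Timp1 rose while its host fell: Syn1 had a log2 fold change of -0.20 (SE 0.05, edgeR adjusted p = 0.00232). Syn2 had -0.19 (SE 0.05, adjusted p = 0.00942), close to the -0.16 of Timp4, and Syn3 had -0.24 (SE 0.09, adjusted p = 0.0590). Around all members, 14 genes lay within 10000 bases or overlapped. Of the 10 tested, 1 was called higher, where 6.35% of all tested genes were. This was Lpcat2, an acyltransferase that makes membrane lipids and platelet-activating factor, 1992 bases from Mmp2, with a log2 fold change of 1.57 (SE 0.19, adjusted p = 0.000549). Slc12a5, the neuronal chloride exporter, lies 4468 bases from Mmp9 and was lower, at -0.27 (SE 0.05, adjusted p = 9.98e-05). Mrpl52, Tmem198b, Dnajc14, Araf and Cep295nl did not pass.

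In the table of long noncoding RNAs (lncRNAs), 18 transcripts lay within 10000 bases of 7 members, 8 of them overlapping the member, and 12 could be tested. None passed the adjusted p in edgeR (lowest 0.313) or in DESeq2, and 1 had an unadjusted edgeR p under 0.05. Replicates varied more in this table. The common biological coefficient of variation was 33.4%, against 7.72% for genes, so changes of the size seen in genes could go unseen here. Over all 12157 lncRNAs tested, 1.14% were called higher and 0.074% lower.

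The members work beside other proteases, inhibitors and substrates, which were read as lists of 105 related genes. Of these, 82 could be tested, 9 were past both thresholds as higher and none as lower, and their median log2 fold change was 0.02. By the adjusted p alone, 21 were higher and 16 lower. Over all tested genes, 6.35% were past both thresholds as higher and 0.107% as lower. By the adjusted p alone these shares were 15.8% and 12.1%, and they stand beside the counts of each list below.

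Among the other MMPs, 16 genes were listed, 9 had a count and 5 were tested, and none was past both thresholds. Mmp16, a membrane-type protease, rose by a log2 fold change of 0.21 (SE 0.07, edgeR adjusted p = 0.0350), and Mmp15, also membrane-type, fell by 0.21 (SE 0.06, adjusted p = 0.0201). Mmp8, the collagenase of neutrophil granules, was below the filter and is named because of its values: it had 2, 0 and 2 counts in sham and 24, 18 and 5 in BCP. The BCP libraries were all above the sham libraries, and the fit without the filter gave a log2 fold change of 3.56 (SE 0.74, edgeR adjusted p = 0.000706). Mmp13, a collagenase of cartilage and bone chosen in the same way, had 0, 4 and 6 counts against 28, 2 and 3, so that BCP 1 alone was high. BCP 1 also stood apart in Aqp4, an astrocyte water channel, with 28568 counts. Without BCP 1, Timp1, Mmp19, Mmp2 and Mmp14 all stayed past the adjusted p, at log2 fold changes of 2.14, 1.51, 0.78 and 0.44.

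ADAM proteases, which release cytokines and receptors from the cell surface, changed in small steps. Of 7 tested, 3 were higher by the adjusted p and 1 lower, with none past 2-fold. Adam17, the main releaser of tumor necrosis factor, had a log2 fold change of 0.32 (SE 0.06, edgeR adjusted p = 0.000441) and Adam10 0.23 (SE 0.05, adjusted p = 0.00185), while Adam19 had -0.20 (SE 0.06, adjusted p = 0.0174). Of 18 ADAMTS proteases, which cut proteoglycans and other matrix proteins, 1 was higher and 3 were lower by the adjusted p. Adamts1 had 0.42 (SE 0.11, adjusted p = 0.00674), Adamts4 -0.33 (SE 0.05, adjusted p = 1.37e-05) and Adamts20 -0.62 (SE 0.10, adjusted p = 0.000118). The list medians were -0.09 and -0.03.

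The other inhibitors and regulators of metalloproteinases had 10 tested genes, of which 6 were higher and 1 lower by the adjusted p, with a median log2 fold change of 0.57. Cd44, a hyaluronan receptor that docks MMPs at the cell surface, measured 48.7, 46.2 and 41.7 CPM in sham and 83.8, 98.6 and 104 CPM in BCP, a log2 fold change of 1.07 (SE 0.08, edgeR adjusted p = 2.71e-08). Cd63, a tetraspanin known as a receptor of Timp1, had 0.62 (SE 0.08, adjusted p = 8.62e-06). Pcolce, an enhancer of procollagen processing, had 1.00 (SE 0.22, adjusted p = 0.00179), just past 2-fold. Its log2 fold change was under 1, at 0.81 without BCP 2, 0.87 without sham 2 and 0.94 without sham 3, and under several other settings too, while staying past the adjusted p. Lcn2, a neutrophil granule protein that binds Mmp9, had 1.66 (SE 0.49, adjusted p = 0.0532), and 1.23 with adjusted p = 0.00174 without sham 3. It is named after its values were seen. Lrp1, an endocytic receptor that clears MMPs and TIMPs, had -0.13 (SE 0.04, adjusted p = 0.0145).

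The plasminogen activator system, whose product plasmin activates proMMPs, had 6 tested genes here, with 1 higher and 2 lower by the adjusted p. Plau, the urokinase, measured 0.305, 0.698 and 0.338 CPM in sham and 2.37, 1.86 and 2.88 CPM in BCP. All BCP libraries lay above all sham libraries, with a log2 fold change of 2.37 (SE 0.39, edgeR adjusted p = 9.61e-05). Serpine2, an inhibitor made by glia and neurons, had -0.26 (SE 0.05, adjusted p = 0.000557) and Serpini1, the neuronal one, -0.15 (SE 0.06, adjusted p = 0.0496).

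Among 23 tested matrix substrates, 3 were higher and 5 lower by the adjusted p, and the median log2 fold change was -0.07. Tnc, the matrix glycoprotein tenascin-C, measured 20.7 ± 2.92 CPM in sham and 42.8 ± 3.96 CPM in BCP without overlap, a log2 fold change of 1.05 (SE 0.10, edgeR adjusted p = 1.90e-07). Without sham 3 or BCP 2 it was just under 2-fold, at 0.97 in either case, and stayed past the adjusted p. Fn1, fibronectin, had 0.61 (SE 0.06, adjusted p = 6.51e-08) and Ncan, the proteoglycan neurocan, 0.42 (SE 0.05, adjusted p = 1.31e-06). The proteoglycans Bcan and Acan fell, with -0.50 (SE 0.05, adjusted p = 1.29e-07) for Bcan and -0.37 (SE 0.08, adjusted p = 0.00124) for Acan. Tnr, their tenascin partner, had -0.27 (SE 0.05, adjusted p = 0.000695). Vcan and Hapln1, of the same list, did not pass. Vcan had 0.12 (SE 0.06, adjusted p = 0.143) and Hapln1 0.0004 (SE 0.09, adjusted p = 0.998).

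Secreted or shed proteins that MMPs are known to cut had 10 tested genes. Of these, 6 were higher and 1 was lower by the adjusted p, 5 of the 6 past 2-fold, and the list median was 1.12. The chemokine Ccl2 measured 0.234 ± 0.0708 CPM in sham and 7.97 ± 0.678 CPM in BCP, a log2 fold change of 5.02 (SE 0.31, edgeR adjusted p = 2.11e-10). Ccl7 had 1 count in the sham libraries together and 41 in the BCP libraries, a ratio of 45.6 with an exact 95% interval of 7.75 to 1850. Tnf, in the 1 of its 2 rows that could be tested, had 3.53 (SE 0.38, adjusted p = 5.36e-07), Il1b 2.80 (SE 0.39, adjusted p = 1.46e-05) and Tgfb1 1.76 (SE 0.12, adjusted p = 7.35e-09). Igfbp5, a carrier of insulin-like growth factors, had -0.37 (SE 0.06, adjusted p = 4.23e-05).

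**Figure D4:**
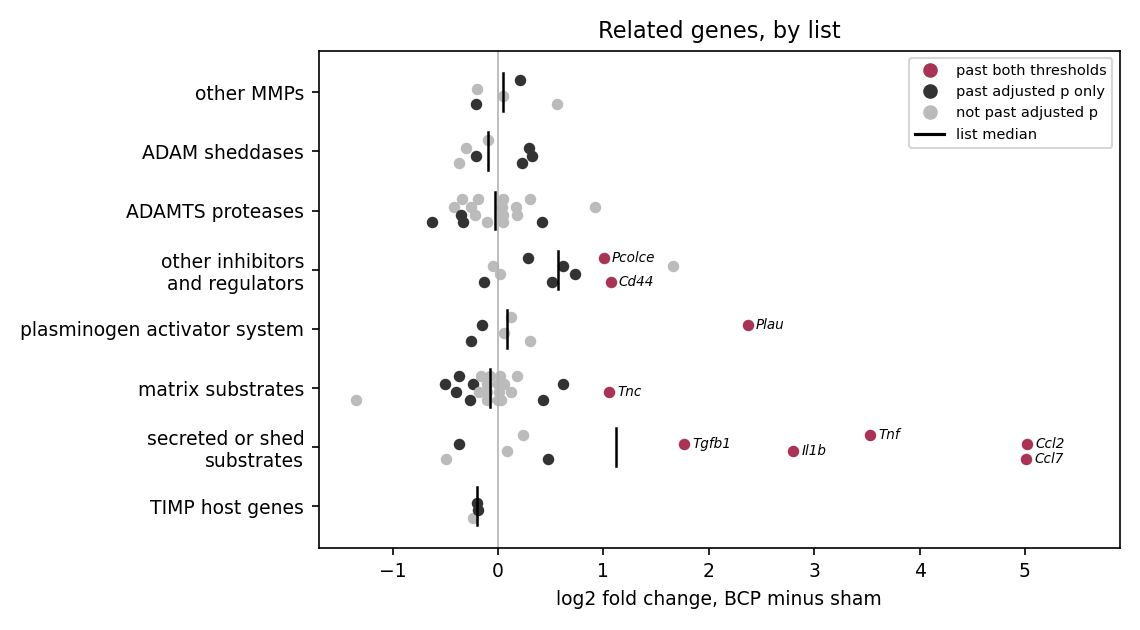
Log2 fold change of the 82 tested related genes by list, with a bar at each list's median. The 9 genes past both thresholds, in red, lie in 4 lists, and 5 of them, Ccl2, Ccl7, Tnf, Il1b and Tgfb1, are secreted or shed substrates. The other MMPs, ADAM and ADAMTS proteases stay within 1 log2 unit of 0.

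Markers of several cell types moved with the members, and their part in the changes above was not tested. Of 8 microglial markers, all tested, 4 were past both thresholds as higher, and their summed level was 224 to 286 CPM in sham and 595 to 701 CPM in BCP. Of 7 neutrophil markers, both that could be tested were higher, with sums of 8.72 to 10.1 CPM against 29.3 to 34.0 CPM. Most of these sums was Csf3r, with means of 9.01 and 28.4 CPM. The other tested marker was S100a8, with 1 count in sham and 48 in BCP. Among those not tested, Mpo, Elane and Camp overlapped between the groups. S100a9 and Ngp were higher in every BCP library, on few counts. All 6 T cell markers were higher, with sums of 4.88 to 5.80 CPM against 41.3 to 44.7 CPM. Most of the sham sums was Cd4, with means of 5.09 CPM in sham and 21.9 CPM in BCP. The other T cell markers had few sham counts over the 3 libraries. These were 1 for Cd3e, 1 for Cd3g, 0 for Cd3d, 3 for Cd8a and 7 for Cd2. In BCP their counts were 271, 88, 42, 231 and 213. Of 5 tested monocyte and macrophage markers, Adgre1 alone was higher, with means of 6.17 and 34.8 CPM, and Mrc1, F13a1, Cd163 and Lyve1 did not pass. Ms4a7 and Ccr2 had too few counts for the test and were 0 in every sham library. In BCP, Ms4a7 had 3, 7 and 8 counts and Ccr2 had 1 in each library. The sums of this list, 20.4 to 25.0 CPM against 47.4 to 55.7 CPM, thus differ mostly by the level of 1 gene, Adgre1. None of these lists had a marker at 0 in all 6 libraries. No meningeal or fibroblast marker was called higher among 7 tested, with sums of 88.6 to 135 CPM against 88.6 to 152 CPM and with Col1a2 and both rows of Ogn at 0. Col1a1 was 84.1 CPM in BCP 1 and at most 33.0 CPM in any other library, and Igf2 was lower, at a log2 fold change of -0.94 (SE 0.12, edgeR adjusted p = 8.66e-05). Epithelial tumor markers summed to at most 2.16 CPM in a sham and 3.04 CPM in a BCP library, with overlapping groups. All 7 oligodendrocyte markers were lower by the adjusted p, with none past 2-fold. Neurons and astrocytes, which define the tissue, had every listed marker above 0. By the adjusted p, 4 of 8 neuron markers were lower and none higher. Of 8 astrocyte markers 3 were lower, and 1, Gfap, was higher at a log2 fold change of 0.80 (SE 0.07, edgeR adjusted p = 5.27e-05).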

How the data were processed

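Strand-specific total RNA libraries of 3 sham and 3 BCP samples were analysed. The submitters' processing notes name HISAT2 2.0.4 and StringTie 1.3.0, and reads were mapped to Rnor_6.0. The program that counted reads, and whether it used strand, are not given in the sources used here. The authors deposited read counts and FPKM values per gene and per lncRNA. The FPKM values were used for levels and, as an alternative, for limma fits. Every value column was matched to a sample by its name.

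Counts were tested with edgeR 4.0.16 (filterByExpr, TMM normalization, robust quasi-likelihood fit) over all genes. Genes with an adjusted p under 0.05 and a fold change over 2 were called. The common biological coefficient of variation was 7.72% for genes and 33.4% for lncRNAs. Replicates differed beyond sampling noise (chi-square per degree of freedom 3.61 to 6.33), so each was counted as 1 sample. Exact intervals and counts cover counting error only. Every member is described. The related genes named were those called, the 2 with the smallest p in each direction of each list among those past the adjusted p, and neighbours within 10000 bases. Some are given by name only, and Ncan, Acan, Vcan, Hapln1, Lcn2, Mmp8, Mmp13, Mmp17 and Mmp24 were added after their values were seen. 1 result for a related gene is not reported here. Members and lists were chosen with earlier results of these data known. DESeq2 1.42.0, limma 3.58.1, other normalizations and filters, a replicate block and leaving out each library were alternatives.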

Additional observations from a re-analysis of the deposited data

How the results depend on the processing

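Timp1, Mmp19 and Mmp2 kept their direction and stayed past the adjusted p in all 16 alternatives each, with log2 fold changes of 1.84 to 2.60, 1.03 to 1.59 and 0.52 to 0.78, and Mmp14 did so in 14 of 16. Testing against a fold change of 2 left 1 member and 6 related genes called higher. With no threshold on the fold change, 4 members and 21 related genes were called higher and 16 related genes lower. Requiring at least 10 counts in every library left 4 related genes called higher, since fewer genes with low counts were tested. Upper-quartile normalization put 1 member, Timp2, past the adjusted p as lower (-0.14, adjusted p = 0.0269). In that setting the median over all genes was lower too, at -0.050 against -0.014 in the main fit. The number of related genes called lower rose from 0 to 1 in DESeq2, with a fold change over 1.5, and with the replicate block. Leaving out single libraries gave 0 or 1, with 1 without sham 2. Eln was that gene in DESeq2 (-1.35, adjusted p = 0.00606), with the block and without sham 2, and it had 142 counts in sham 3 alone. The cause was not tested. The sign of Timp3 turned positive with library size only (0.030), with limma on log2(FPKM + 0.1) (0.030) and log2(FPKM + 1) (0.030), and without sham 1, sham 3 or BCP 3 (0.0056 to 0.020, beside -0.059 as the lowest value of this kind, without sham 2). The median over all genes also turned positive with library size only (0.026) and in the limma fits (0.026 and 0.022). It was -0.014 in the main fit. Without sham 1, sham 3 or BCP 3 that median stayed negative, at -0.011, -0.011 and -0.010. In CPM the ratio of the sums was lower in BCP by a difference of -3.25, against -4.74 in FPKM, since CPM does not divide by length. Samples of 1 number did not deviate together (correlations over genes of -0.110, 0.0543 and -0.0353), so the numbers were not read as pairs. With the replicate block, 2 members and 9 related genes were called higher, with Lcn2 in (1.71, adjusted p = 0.000223) and Pcolce out (0.99). Pcolce was also under 2-fold, though past the adjusted p, with the exact test, the likelihood ratio test and no filter (1.00 each after rounding), upper-quartile normalization (0.97) and limma on log2(FPKM + 0.1) (0.99) and log2(FPKM + 1) (0.73). Of 304 other counts by list under the alternatives, 266 stayed within 1.5 times. A count of 0 that stayed at 0 is among the 266. In the main fit no list had a gene called lower. The other MMPs, ADAM and ADAMTS proteases and TIMP host genes had none called higher. The share therefore says little about the lists that had calls.

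Depth limited Mmp3 and Mmp9, which were under the low-count filter, and exact zeros were not read as absence.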
